A study of Mus musculus with 9 samples.

Results

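The release channels and pumps of the intracellular calcium store were followed through the conversion of mouse embryonic fibroblasts (MEFs) into induced neurons (iNs). The members were the 3 ryanodine receptor genes (Ryr1, Ryr2 and Ryr3), the 3 IP3 receptor genes (Itpr1, Itpr2 and Itpr3) and the 3 sarco/endoplasmic reticulum calcium pump genes (Atp2a1, Atp2a2 and Atp2a3, which encode SERCA1, SERCA2 and SERCA3). These 9 genes, of 30406 present in every library, were taken by symbol, and the set was selected on the Ryr2 level, which differed between genotypes in neurons. That difference is therefore given as a description without a test.

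The endoplasmic reticulum (ER) holds calcium at a far higher concentration than the cytosol. SERCA pumps fill this store with the energy of ATP, and 2 families of large tetrameric channels empty it. IP3 receptors open when phospholipase C produces IP3 after a surface receptor is engaged, whereas ryanodine receptors open on calcium itself or, in skeletal muscle, through direct contact with the voltage sensor of the surface membrane. In textbook terms Ryr1 is the release channel of skeletal muscle and Atp2a1 the pump of its fast fibres. Ryr2 is the release channel of heart and brain, and Ryr3 is more widely and weakly expressed. Itpr1 is the main IP3 receptor of central neurons, Atp2a2 is the housekeeping pump, and Atp2a3 is typical of blood cells.

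Each of the 9 libraries was 1 culture of 1 genotype (WT, Per1-/- or Per2-/-) on 1 day (day 4, 7 or 10) after expression of neuron-inducing transcription factors was switched on with doxycycline from lentiviruses that all cultures carried. The knockouts were the germline alleles Per1tm1Drw and Per2tm1Drw of Per1 and Per2, which encode clock proteins, and each MEF stock pooled mid-gestation embryos without head and heart, 4 to a dish, whose sex was not determined. With 1 library per genotype and day, no genotype was repeated within a day: a genotype contrast used the 3 days as repeats and a day contrast used the 3 genotypes. Cells were measured with the 10x Genomics 3′ kit, in which each unique molecular identifier (UMI) marks the 3′ end of 1 captured transcript, so levels are given as CPM, a gene's UMI summed over the cells of a class in a library and brought to the same total in every such sum, and are compared for a gene between samples, not between genes.

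The files held 95603 cell barcodes, of which 74835 cells were kept after filters, and total UMI per library ran from 126625215 to 353198559. The lowest depth was that of WT day 10, with a median of 9988.5 UMI per kept cell against 16327 to 27266 in the others. Clusters were named from marker lists as neuron-like (8519 cells), fibroblast-like (43571), macrophage-like (6441), Schwann-like (2619), skeletal muscle-like (2294), astrocyte-like (1072) and mesothelial-like (519), and 9800 cells stayed unnamed. Of the fibroblast-like cells, 469 lay in a cluster led by Hp, Plin1 and Car3, in which genes of fat cells such as Adipoq and Fabp4 also led, and leaving that cluster out ended no call named below. Of the markers, 16 of 18 neuronal, 15 of 15 macrophage, 15 of 17 skeletal muscle, 10 of 14 fibroblast, 9 of 11 Schwann, 7 of 8 astrocyte and 8 of 9 mesothelial genes were highest in their own class. The summed markers did not set the fibroblast-like class (20762 to 41940 CPM) and the Schwann-like class (3256 to 3697 CPM) apart, since another class reached 35839 and 7992 CPM. The larger skeletal muscle-like cluster was led by Tnnt2, a troponin of heart and of embryonic skeletal muscle. Each targeted gene was highest in its own knockout over all cells (Per1 9.15 to 10.4 CPM in Per1-/- and 6.38 to 7.75 in the others, Per2 4.94 to 6.45 CPM in Per2-/- and 2.60 to 3.16 in the others), and 3′ tags do not check these deletions. Xist, the transcript of the inactive X chromosome, was at 0.0676 and 0.0596 CPM in Per1-/- day 7 and day 10 and at 347 to 996 CPM in the other 7 libraries, Per1-/- day 4 included. Day 10 was counted against another gene annotation than days 4 and 7, so the day and the counting cannot be told apart. Up to 365 barcodes occurred in both libraries of a pair (Per1-/- day 4 and Per2-/- day 7).

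The bases just upstream of the RefSeq starts are shown for 4 members that the results below turn on: Ryr2, on which the genes were selected, Itpr3, which fell over the days in neuron-like cells, and Ryr1 and Atp2a1, which moved together in skeletal muscle-like cells. Each line holds the 250 bases before the RefSeq start in GRCm38.p6, 5′ to 3′ on the gene's own strand, and capitals mark CACGTG, the E-box letters read by the CLOCK and BMAL1 proteins that PER proteins restrain, or CAGCTG, an E-box form read by myogenic and proneural factors. Both motifs are palindromes and were searched on both strands. For Ryr1 and Atp2a1 the RefSeq start lies a short way inside the gene span given below, which comes from another annotation, and distances are counted from the RefSeq start.
Ryr2 (chr13:12106946-12107195, minus strand): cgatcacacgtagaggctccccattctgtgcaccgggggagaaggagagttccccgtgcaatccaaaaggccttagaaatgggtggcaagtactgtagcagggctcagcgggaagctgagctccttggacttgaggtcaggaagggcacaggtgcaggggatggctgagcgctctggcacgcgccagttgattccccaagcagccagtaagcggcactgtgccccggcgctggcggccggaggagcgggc
Itpr3 (chr17:27057054-27057303, plus strand): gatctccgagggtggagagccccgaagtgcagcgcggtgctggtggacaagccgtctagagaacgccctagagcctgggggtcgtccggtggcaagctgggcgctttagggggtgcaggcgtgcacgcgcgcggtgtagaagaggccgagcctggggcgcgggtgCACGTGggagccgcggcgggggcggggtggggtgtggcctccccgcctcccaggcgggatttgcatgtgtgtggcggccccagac
Ryr1 (chr7:29125152-29125401, minus strand): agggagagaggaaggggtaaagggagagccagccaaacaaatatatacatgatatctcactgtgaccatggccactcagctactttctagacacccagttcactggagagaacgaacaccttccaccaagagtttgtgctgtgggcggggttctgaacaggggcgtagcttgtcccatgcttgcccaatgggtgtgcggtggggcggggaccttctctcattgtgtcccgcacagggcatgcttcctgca
Atp2a1 (chr7:126463074-126463323, minus strand): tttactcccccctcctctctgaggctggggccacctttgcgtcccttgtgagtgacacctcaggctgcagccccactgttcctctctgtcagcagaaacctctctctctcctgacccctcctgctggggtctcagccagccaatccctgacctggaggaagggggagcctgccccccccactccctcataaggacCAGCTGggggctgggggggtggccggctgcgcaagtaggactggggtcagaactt

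CACGTG occurred once in the Itpr3 window, 85 bases before the start, and CAGCTG once in the Atp2a1 window, 55 bases before the start. Neither was found in the windows of Ryr1, Ryr2, Itpr2 and Atp2a3. Of 32851 promoter windows of this length, 6.02% held CACGTG and 13.0% held CAGCTG, so a match describes the letters and nothing more. Ryr3, Itpr1 and Atp2a2 had no entry in the promoter table.

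In the files' build (mm10, which is GRCm38) the ryanodine receptor genes are long: Ryr1 lies at chr7:29003344-29125179 on the minus strand (121836 bases), Ryr2 at chr13:11553102-12106945 on the minus strand (553844 bases) and Ryr3 at chr2:112631355-113217096 on the minus strand (585742 bases). Itpr1 lies at chr6:108213096-108551109 on the plus strand, Itpr2 at chr6:146108299-146502223 on the minus strand and Itpr3 at chr17:27057304-27122223 on the plus strand. Atp2a1 lies at chr7:126445858-126463108 on the minus strand, Atp2a2 at chr5:122453513-122502225 on the minus strand and Atp2a3 at chr11:72961169-72993044 on the plus strand. Ryr3 overlaps Aven, Atp2a1 overlaps Rabep2 and Itpr3 overlaps Itpr3os on the opposite strand; the 3′ kit keeps the strand. Atp2a3 lies 3851209 bases from Per1 on chromosome 11.

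Each member had its own distribution over the cell classes, shown in the plot of levels by class. The following levels are ranges over libraries in which the class had at least 50 cells, given without a test because the classes came from the same cells. Ryr2 was highest in neuron-like cells (19.8 to 55.6 CPM, median 32.8), followed by skeletal muscle-like cells (12.5 to 36.2, median 20.2), and these ranges overlapped. In the other 5 classes Ryr2 was between 0 and 4.21 CPM. Ryr1 was highest in skeletal muscle-like cells (0.377 to 20.1, median 1.98) and did not pass 1.65 CPM in another class, although without a cluster of 81 cells described below, and by the unthinned share of cells, Ryr1 was highest in astrocyte-like cells. Ryr3 was highest in mesothelial-like cells (2.01 to 22.6, median 8.90), then in skeletal muscle-like (2.57 to 10.2) and neuron-like cells (1.75 to 6.85), with overlapping ranges.

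**Figure D1:**
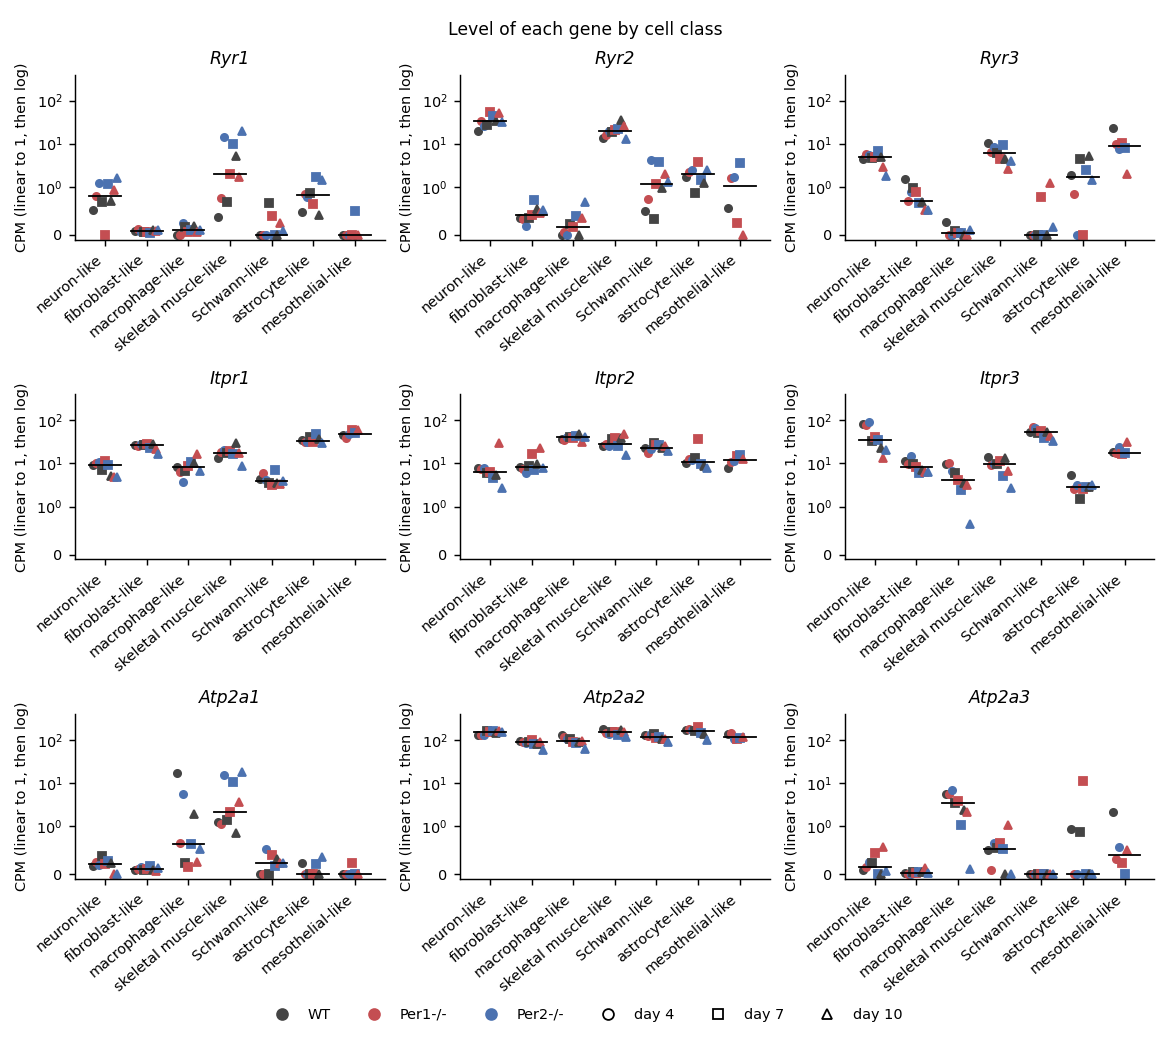
Level of the 9 genes in 7 cell classes, on an axis in CPM that is linear to 1 and logarithmic above. Each point is 1 library with at least 50 cells of the class (colour, genotype; shape, day) and each bar is the median over libraries; Ryr2 is seen in neuron-like and skeletal muscle-like cells, and Atp2a2 lies above 60 CPM in every class.

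The IP3 receptors divided the classes differently. Itpr1 was highest in mesothelial-like cells (39.5 to 60.5 CPM, median 49.2), then in astrocyte-like (30.3 to 47.8) and fibroblast-like cells (16.4 to 28.6), and was at 4.74 to 11.5 CPM in neuron-like cells. The astrocyte-like range overlapped the mesothelial-like range but not the fibroblast-like range. Itpr2 was highest in macrophage-like cells (32.2 to 48.7, median 40.2), with overlapping ranges in skeletal muscle-like (16.1 to 49.2) and Schwann-like cells (17.3 to 29.7), and its median was lowest in neuron-like cells (6.30). Itpr3 was highest in Schwann-like (32.8 to 70.2, median 53.5) and neuron-like cells (13.5 to 90.0, median 34.8), again overlapping, and lowest in astrocyte-like cells (1.46 to 5.42).

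Of the pumps, Atp2a2 was present throughout, from 60.2 CPM in fibroblast-like to 203 CPM in astrocyte-like cells, and each class overlapped the next in order. A share of 52.5% to 95.4% of the cells of a class had an Atp2a2 UMI. Atp2a1 was highest in skeletal muscle-like cells (0.861 to 18.3, median 2.19), followed by macrophage-like cells (0.157 to 17.5, median 0.634). Atp2a3 was highest in macrophage-like cells (0.105 to 6.82, median 3.53) and gave 0 UMI in all 9 Schwann-like sums. A level of 11.5 CPM of Atp2a3 in astrocyte-like cells of Per1-/- day 7 rested on 18 UMI in 4 of 55 cells.

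The genes whose levels followed each member most closely over 59 class-by-library sums included, for Ryr2, Dpp6 (Pearson r = 0.957 of log2(CPM + 1)), Mcf2l (0.956), Prox1 (0.952) and Sult2b1 (0.945), out of 11482 genes compared. For Ryr1 they were Myog (0.833), Myl4 (0.818) and Mylpf (0.809), and for Atp2a1 Tnni2 (0.731), Dusp27 (0.724) and Myog (0.713). For Ryr3 they were Btg2 (0.852), Gucy1a2 (0.843) and Usp13 (0.833). For Itpr1, Pdpn (0.903), Mgst1 (0.887) and Ccdc80 (0.881) came first, for Itpr2, Gcnt1 (0.826), Kcnk13 (0.798) and Rreb1 (0.794), and for Itpr3, Sema4c (0.916), Smad2 (0.876) and Rassf1 (0.869). For Atp2a2 they were Ywhaz (0.845), Mtch2 (0.836) and Btbd1 (0.810), and for Atp2a3 Pstpip1 (0.799), Tnip3 (0.765) and Bhlhe41 (0.750). These sums share libraries and classes, so the coefficients describe the pattern over classes.

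Within every day the neuron-like cells of Per1-/- held more Ryr2 than those of WT, the difference on which the genes were chosen. On day 4 it was at 19.8 CPM in WT, 32.8 in Per1-/- and 25.5 in Per2-/-. On day 7 it was at 26.7 in WT, 55.6 in Per1-/- and 43.7 in Per2-/-. On day 10 it was at 33.8 in WT, 50.7 in Per1-/- and 32.3 in Per2-/-. Per1-/- was the highest of the genotypes within each day, while Per2-/- lay between on days 4 and 7 and beside WT on day 10. Over the days the genotypes overlapped, since Per1-/- day 4 was below WT day 10.

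The ratio of Per1-/- to WT in Ryr2 CPM was 1.66 on day 4 (95% interval 1.49 to 1.86, counting error only), 2.08 on day 7 (1.77 to 2.46) and 1.503 on day 10 (1.22 to 1.85). The ratio of Per2-/- to WT was 1.29 (1.12 to 1.48), 1.64 (1.44 to 1.87) and 0.956 (0.791 to 1.16). The fitted log2 difference (edgeR, with day as a covariate) was 0.81 ± 0.12 (SE) for Per1-/- minus WT, 0.37 ± 0.12 for Per2-/- minus WT and 0.44 ± 0.12 for Per1-/- minus Per2-/-. Intervals of levels, shares of cells and ratios cover counting error only, not the spread between cultures.

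The share of neuron-like cells with at least 1 Ryr2 UMI ran from 13.2% in WT day 4 to 28.6% in WT day 10. After every cell was thinned to 3000 UMI the day 4 share was 4.79% in WT, 7.58% in Per1-/- and 6.14% in Per2-/-, the day 7 share 7.15%, 12.6% and 10.7%, and the day 10 share 9.24%, 12.1% and 9.85%. Per1-/- was again the highest on each day. In macrophage-like cells, taken as the background of free RNA, 0% to 0.851% of cells had a Ryr2 UMI at a median of 18317 to 35400 UMI per cell, against 8905 to 16219 in neuron-like cells.

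Neuron-like cells fell into 4 clusters that held Ryr2 at different levels, as seen in the plot of Ryr2 by cluster. In the cluster led by Lhx3, a transcription factor of motor and related neurons, Ryr2 was at 25.4, 42.2 and 32.0 CPM in WT, Per1-/- and Per2-/- on day 4, and 26.3, 47.9 and 38.2 CPM when day 7 was measured. In the cluster led by Snhg11 and Stmn3, the day 7 libraries of WT, Per1-/- and Per2-/- had 38.7, 91.9 and 56.1 CPM of Ryr2, and those of day 10 had 34.2, 73.3 and 40.1. In the cluster led by Htr3a, a serotonin-gated channel gene, the day 4 libraries had 37.5, 34.5 and 31.7 CPM of Ryr2, those of day 7 had 53.1, 78.3 and 79.0, and those of day 10 had 71.5, 66.2 and 56.1. The cluster led by Vwc2l and Scg2 held 2.01 to 11.2 CPM of Ryr2 in all libraries. Per1-/- was above WT in the Lhx3-led cluster on days 4 and 7, in the Snhg11-led cluster on days 4, 7 and 10, in the Htr3a-led cluster on day 7, and in the Vwc2l-led cluster on days 4 and 7 but not on day 10. On day 4 the intervals of the ratio in the Snhg11-led and Vwc2l-led clusters, given below, included equal levels.

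The Per1-/- to WT ratio of Ryr2 within the Lhx3-led cluster was 1.66 (1.47 to 1.88) on day 4 and 1.82 (1.28 to 2.58) on day 7, where day 10 had 5 WT cells and 1 WT UMI. Within the Snhg11-led cluster the ratio for Ryr2 was 2.37 (1.82 to 3.07) on day 7 and 2.14 (1.63 to 2.83) on day 10, while on day 4 WT had 8 UMI and the interval ran from 0.943 to 4.71. Within the Htr3a-led cluster it was 0.921 (0.620 to 1.38), 1.48 (1.09 to 2.004) and 0.926 (0.651 to 1.33) on days 4, 7 and 10. Within the Vwc2l-led cluster, where few Ryr2 UMI were counted, it was 1.59 (0.824 to 3.19), 2.31 (1.06 to 4.84) and 0.419 (0.0900 to 1.65). The difference between clusters was not tested.

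**Figure D2:**
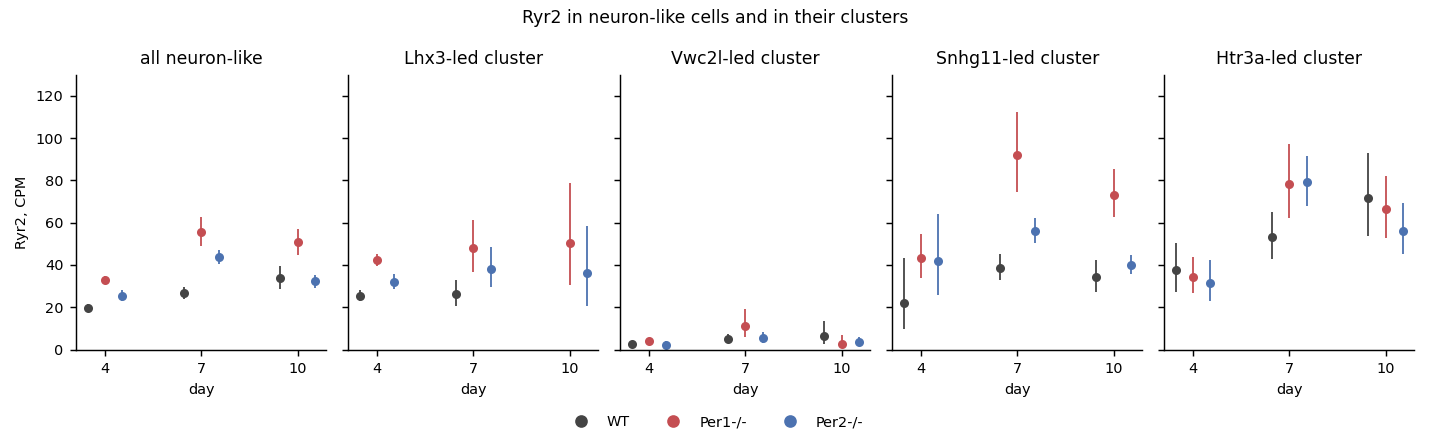
Ryr2 in CPM by day in all neuron-like cells and in each of their 4 clusters. Points are libraries with at least 30 cells of the cluster, colours are genotypes and bars are 95% Poisson intervals; Per1-/- lies above WT in the pooled class on each day and in the Snhg11-led cluster, but not on days 4 and 10 in the Htr3a-led cluster.

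Of the other members in neuron-like cells, fitted log2 differences of Per1-/- minus WT were 0.02 ± 0.08 for Atp2a2, −0.10 ± 0.15 for Itpr3, 0.33 ± 0.18 for Itpr1, 0.08 ± 0.32 for Ryr3 and 0.09 ± 0.57 for Ryr1. For Per2-/- minus WT they were 0.02 ± 0.08 for Atp2a2, 0.07 ± 0.15 for Itpr3, 0.25 ± 0.17 for Itpr1, 0.02 ± 0.30 for Ryr3 and 1.06 ± 0.51 for Ryr1. Itpr2 was at 2.63 to 7.74 CPM in 8 libraries and at 29.3 CPM in Per1-/- day 10, where 1 cell gave 116 of 156 Itpr2 UMI. Without that cell Itpr2 in Per1-/- day 10 was at 7.53 CPM. Atp2a1 and Atp2a3, at most 0.383 and 0.563 CPM, did not pass the filter on low counts. These contrasts share libraries with the one that chose the genes and carry no p here. For background, the share of all 14595 genes past the threshold in neuron-like cells (edgeR quasi-likelihood test, Benjamini-Hochberg adjusted p under 0.05) was 0% for Per1-/- minus WT, 0.00685% for Per2-/- minus WT and 0% for Per1-/- minus Per2-/-.

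Several members differed between days in neuron-like cells, a contrast that did not enter the choice of genes. It shares libraries and the estimate of spread with the Ryr2 genotype difference that did, so the day p-values of Ryr2 are not independent of that choice. Itpr3 fell and Ryr2 and Atp2a2 rose, as the plot of neuron-like cells by day shows. From day 4 to day 7, 3 of the 7 members tested passed the threshold, where 17.3% of all genes did, and from day 4 to day 10, 4 of 7, where 42.1% of all genes did. The median log2 difference of the 7 members was −0.17 for day 7 and 0.31 for day 10, against −0.0019 and −0.0087 over all genes tested.

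Itpr3 showed the greatest change. The day 4 libraries held 81.7 (WT), 76.8 (Per1-/-) and 90.0 CPM (Per2-/-) of Itpr3, those of day 7 held 33.2, 40.6 and 34.8, and those of day 10 held 22.6, 13.5 and 20.6. The days did not overlap. The log2 difference from day 4 was −1.23 ± 0.14 on day 7 (adjusted p = 0.000354) and −2.07 ± 0.16 on day 10 (adjusted p = 3.86e-06), and both held in all 19 alternatives, among them each library left out in turn. The Lhx3-led cluster, in which Itpr3 was at 101 to 126 CPM on day 4 and 72.2 to 107 on day 7, made up 66.9% to 69.5% of day 4 neuron-like cells, 14.2% to 32.6% of those of day 7 and 2.30% to 10.0% of those of day 10. In the Vwc2l-led cluster Itpr3 went from 24.1 to 27.6 CPM on day 4 to 8.83 to 9.44 on day 7. The part of the changing make-up in the fall of Itpr3 was not tested.

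Ryr2 rose by a log2 difference of 0.65 ± 0.12 from day 4 to day 7 (adjusted p = 0.00439) and of 0.63 ± 0.12 to day 10 (adjusted p = 0.00221). It was higher on day 7 than on day 4 in each of the 3 genotypes, from 19.8 to 26.7, 32.8 to 55.6 and 25.5 to 43.7 CPM in WT, Per1-/- and Per2-/-. The share of the Lhx3-led cluster changed between these days as given for Itpr3. That of the Snhg11-led cluster was 1.73% to 4.82% on day 4 and 27.3% to 46.9% on day 7. That of the Htr3a-led cluster was 3.69% to 6.70% on day 4 and 11.3% to 17.8% on day 7. Within the Lhx3-led cluster Ryr2 went from 25.4 to 26.3 CPM in WT, from 42.2 to 47.9 in Per1-/- and from 32.0 to 38.2 in Per2-/-, and within the Htr3a-led cluster from 37.5 to 53.1, 34.5 to 78.3 and 31.7 to 79.0. The part of the make-up in the rise of Ryr2 was not tested. Both calls held with each library left out and were lost without genotype in the model or with finer clusters (Leiden resolution 2), with adjusted p up to 0.112 for day 7. Atp2a2 rose by 0.29 ± 0.08 to day 7 (adjusted p = 0.0301) and by 0.31 ± 0.08 to day 10 (adjusted p = 0.00957), with 129 to 133 CPM in day 4 libraries, 152 to 166 in day 7 and 149 to 163 in day 10 libraries and no overlap between day 4 and the later days. The day 7 call of Atp2a2 was lost in 10 of 19 alternatives, including with any library of day 4 or day 7 left out (adjusted p at most 0.140), and the day 10 call without Per1-/- day 10 and with finer clusters (adjusted p up to 0.0635).

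Itpr1 fell from 8.996 to 10.8 CPM on day 4 to 4.74 to 5.12 on day 10, a log2 difference of −0.98 ± 0.18 (adjusted p = 0.00156), and gave −0.17 ± 0.16 on day 7 (adjusted p = 0.514). Its libraries did not overlap between days 4 and 10, and the call was lost only with finer clusters among 19 alternatives, where the log2 difference was −0.45 ± 0.22 (adjusted p = 0.138). Ryr3 was at 4.30 to 5.75 CPM on day 4 and 1.75 to 4.89 on day 10 and did not pass by edgeR (log2 −0.80 ± 0.33, adjusted p = 0.0736) or DESeq2. The Ryr3 difference was called by limma-voom (adjusted p = 0.0362), with no filter on low counts, with doublets kept, with finer clusters and without WT day 10 (adjusted p = 0.00683 to 0.0476 over these 4). Itpr2 gave −0.43 ± 0.51 on day 7 and 0.35 ± 0.52 on day 10 (adjusted p = 0.613 and 0.618). Without Per1-/- day 10, the library of the cell rich in Itpr2, the day 10 difference turned to −0.97 ± 0.27 and passed (adjusted p = 0.0214). Ryr1 gave 0 UMI in Per1-/- day 7 and was at 0.522 to 1.61 CPM elsewhere, with no call on either day.

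**Figure D3:**
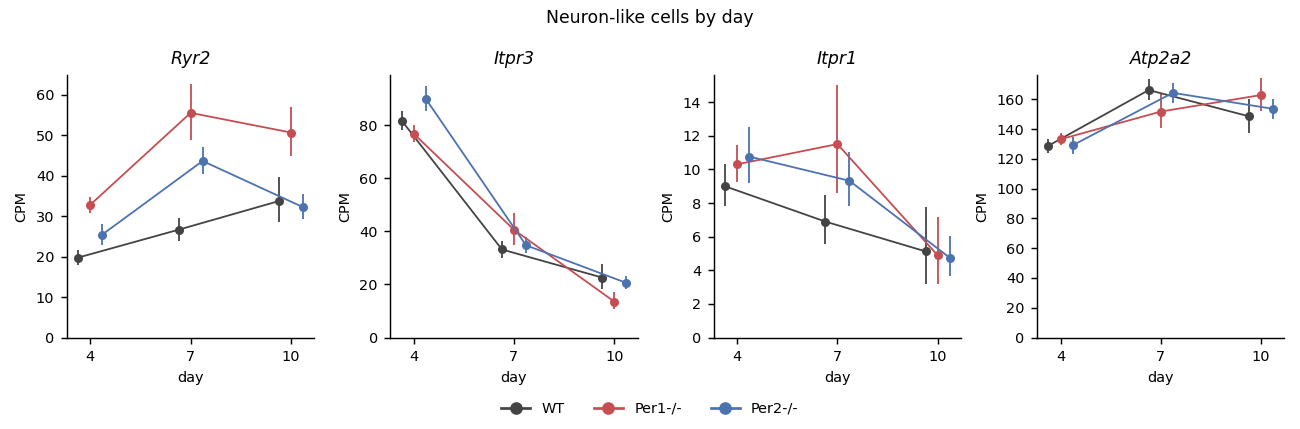
Ryr2, Itpr3, Itpr1 and Atp2a2 in neuron-like cells, in CPM, on days 4, 7 and 10. Points are libraries, colours are genotypes, bars are 95% Poisson intervals and lines join libraries of a genotype, which are separate cultures; Itpr3 goes from 76.8 to 90.0 CPM on day 4 to 13.5 to 22.6 on day 10 while Ryr2 in each genotype is higher on day 7 than on day 4.

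In skeletal muscle-like cells Ryr1, the channel of skeletal muscle, and Atp2a1, the pump of its fast fibres, were higher in Per2-/- than in the other genotypes. Ryr1 was at 14.2, 9.87 and 20.1 CPM in Per2-/- on days 4, 7 and 10, at 0.377, 0.689 and 5.16 in WT, and at 0.760, 1.98 and 1.71 in Per1-/-. Atp2a1 was at 15.8, 10.6 and 18.3 CPM in Per2-/-, at 1.26, 1.38 and 0.861 in WT, and at 1.14, 2.19 and 3.64 in Per1-/-. The Per2-/- libraries did not overlap those of the other genotypes for either gene, but for Ryr1 this rested on 1 cell of Per2-/- day 4, without which that library was at 4.86 CPM and below WT day 10. Of the 8 members tested, 2 passed for Per2-/- minus WT (0.272% of all genes), the same 2 for Per1-/- minus Per2-/- (0.218%) and 0 for Per1-/- minus WT (0%), where 1 had an unadjusted p under 0.05 and DESeq2 and limma-voom also called 0. Outside Per2-/-, Ryr1 was above 1.98 CPM only in WT day 10. Its passing the filter on low counts thus leaned on its level in Per2-/-, which the share over all genes does not allow for.

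For Per2-/- minus WT the log2 difference was 3.46 ± 0.53 for Ryr1 (adjusted p = 0.0306) and 3.47 ± 0.39 for Atp2a1 (adjusted p = 0.00760). For Per1-/- minus Per2-/- it was −3.42 ± 0.52 for Ryr1 (adjusted p = 0.0355) and −2.81 ± 0.36 for Atp2a1 (adjusted p = 0.0183). These calls rest on few cells. A cluster of 81 cells led by Ttn, Mylpf and Myl1, genes of the contractile apparatus, gave 92.4% of the Ryr1 UMI and 72.5% of the Atp2a1 UMI of the class. In it 39 cells had a Ryr1 UMI, 37 an Atp2a1 UMI and 25 both, whereas in the other 2213 cells 11, 50 and 5 did.

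The Ttn-led cluster made up 3.35%, 8.89% and 17.9% of skeletal muscle-like cells in Per2-/- on days 4, 7 and 10, and 0.585% to 3.003% in WT and 1.04% to 2.45% in Per1-/-, as the plot of skeletal muscle-like cells by library shows. Without this cluster the Atp2a1 difference of Per2-/- minus WT was not called (adjusted p = 0.703) and Ryr1 was too low to be tested. A single cell of Per2-/- day 4 gave 43 of 65 Ryr1 UMI and 32 of 72 Atp2a1 UMI of its library, and without it Atp2a1 was at 8.84 CPM. For Per2-/- minus WT, the Atp2a1 call was lost without WT day 4, and the Ryr1 call without WT day 4, WT day 7, Per2-/- day 7 or Per2-/- day 10, with adjusted p up to 0.532 over all alternatives. For Per1-/- minus Per2-/-, the Ryr1 call was lost with any of 5 libraries left out (Per1-/- day 4, WT day 7, Per2-/- day 7, Per1-/- day 10 and Per2-/- day 10) and the Atp2a1 call with Per1-/- or Per2-/- day 10 left out, with adjusted p up to 0.430 and 0.684. Both of these calls were also lost by limma-voom and with Y-linked CPM as a covariate, and in all the Ryr1 call was lost in 10 of 18 alternatives and the Atp2a1 call in 6 of 19.

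**Figure D4:**
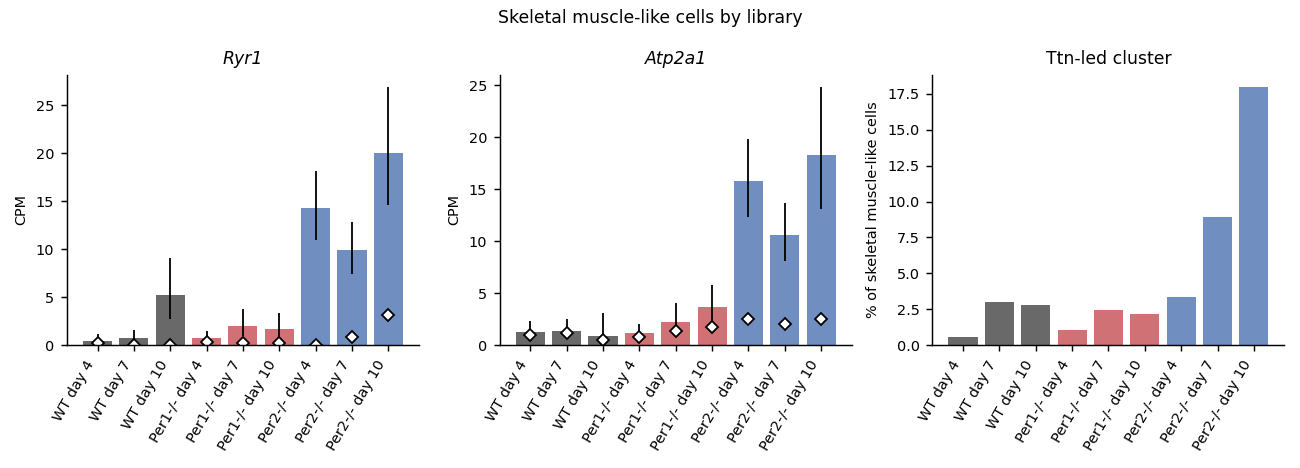
Ryr1 and Atp2a1 in CPM and the share of cells in the Ttn-led cluster, by library, in skeletal muscle-like cells. Bars are libraries with 95% Poisson intervals and white diamonds give the level without the Ttn-led cluster; the 3 Per2-/- libraries stand above the other 6 for both genes (for Ryr1 not without 1 cell of Per2-/- day 4), and the diamonds lie far below their bars.

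Of 70 partner genes of ER calcium handling tested in skeletal muscle-like cells, 3 were higher in Per2-/- than in WT, where 0.272% of all genes passed (1 of 11 luminal calcium-binding genes, 2 of 14 ryanodine receptor partners and 0 of 5 SERCA regulators): Casq2, a calcium buffer of the sarcoplasmic reticulum (log2 3.61 ± 0.37, adjusted p = 0.00501), Jsrp1, a junctional protein of the triad (3.47 ± 0.41, adjusted p = 0.00963), and Trdn, which encodes triadin (2.55 ± 0.36, adjusted p = 0.0222). Casq2 was at 18.4, 14.2 and 41.9 CPM in Per2-/- and at 1.24 to 3.87 in the other libraries. In the contrast of Per1-/- minus Per2-/- (0.218% of all genes), Casq2 (−3.42 ± 0.35, adjusted p = 0.00497), Hrc, a histidine-rich calcium binding protein (−1.74 ± 0.23, adjusted p = 0.0187), and Jsrp1 (−2.70 ± 0.37, adjusted p = 0.0217) passed. Pooled over libraries the Ttn-led cluster had 109 CPM of Casq2, 96.7 of Jsrp1, 101 of Trdn and 99.2 of Hrc, against 1.42, 1.20, 1.35 and 4.59 in the rest of the class. All 6 of these genotype calls were lost without that cluster. For Per2-/- minus WT, leaving out WT day 4 ended each of the 3 calls, WT day 7 those of Jsrp1 and Trdn, and WT day 10 or Per2-/- day 10 that of Trdn, which limma-voom did not call. For Per1-/- minus Per2-/-, leaving out Per1-/- day 7, Per2-/- day 7 or Per1-/- day 10 ended the calls of Hrc and Jsrp1, and Per2-/- day 10 that of Jsrp1, which limma-voom did not call. No partner was called for Per1-/- minus WT in this class, where 1 had an unadjusted p under 0.05.

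Ryr2 in skeletal muscle-like cells was at 12.5 to 36.2 CPM and did not differ between genotypes beyond the error of the fit (Per1-/- minus WT log2 −0.02 ± 0.27, Per2-/- minus WT −0.07 ± 0.28, adjusted p = 0.9999 and 0.973). The approximate 95% interval for Per1-/- minus WT, taken from the SE of the fit and not from counting error alone, was −0.55 to 0.51. Between days 7 and 4, 0 of 8 members passed in this class (0.7% of all genes), with 0 at an unadjusted p under 0.05 and 0 by DESeq2 or limma-voom. Between days 10 and 4, 1 of 8 passed (5.26% of all genes): Ryr3 fell from 6.56 to 10.2 CPM to 2.57 to 4.30 (log2 −1.19 ± 0.28, adjusted p = 0.0401). That call was lost in 11 of 19 alternatives, DESeq2 and limma-voom included, and with any of WT day 4, Per1-/- day 4, WT day 7, Per1-/- day 7 and the 3 day 10 libraries left out (adjusted p up to 0.172). Ryr2 passed without Per2-/- day 10 (log2 1.002, adjusted p = 0.0187) and Ryr1 without barcodes shared between libraries (2.17, adjusted p = 0.0367). Of the partners, Trdn passed on day 7 (1.997 ± 0.373, adjusted p = 0.0485, lost in 14 of 19 alternatives), and on day 10 Trdn (3.09 ± 0.37), Slc8a1 (1.72 ± 0.23), Jsrp1 (2.01 ± 0.40), Atp2b2 (2.26 ± 0.47) and Calu (−0.53 ± 0.12) passed. Of these day 10 calls, Slc8a1 held in all 19 alternatives, Trdn was lost in 2, Jsrp1 and Atp2b2 in 5 each and Calu in 8. Those of Trdn, Jsrp1 and Atp2b2 were among others lost without the Ttn-led cluster, and those of Jsrp1, Atp2b2 and Calu with any of 3, 4 and 6 libraries left out.

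In fibroblast-like cells, the starting cells and the largest class, no member passed between genotypes. The share of all genes past the threshold was 0% for each of the 3 genotype contrasts, and of 8 members tested 1, 1 and 2 had an unadjusted p under 0.05 for Per1-/- minus WT, Per2-/- minus WT and Per1-/- minus Per2-/-. DESeq2 called 1 member (Itpr2, Per1-/- minus Per2-/-, adjusted p = 0.00389) and limma-voom 0. With Per1-/- day 4 left out, Atp2a2 passed for Per1-/- minus Per2-/- (log2 0.45 ± 0.10, adjusted p = 0.0457), as did Itpr2 (values below). The 0% shares above are those of the main fit. The shares of all genes by DESeq2 and without Per1-/- day 4 are not given, so these calls stand without a background. Itpr2 was at 16.6 and 23.4 CPM in Per1-/- day 7 and day 10, at 7.51 in Per1-/- day 4 and at 6.004 to 9.66 in the 6 libraries of the other genotypes. The fitted log2 difference for Itpr2 was 0.76 ± 0.26 for Per1-/- minus WT (adjusted p = 0.499) and 1.09 ± 0.26 for Per1-/- minus Per2-/- (adjusted p = 0.262). Without Per1-/- day 4 these were 1.13 ± 0.14 (adjusted p = 0.00943) and 1.44 ± 0.14 (adjusted p = 0.00271). The 2 high libraries were those with Xist near 0, and the part of embryo sex in this difference was not tested. They also differed from the other genotypes in make-up: a cluster led by Tnn and Adamts3 held 1.43% of the fibroblast-like cells of Per1-/- day 7, against 26.8% in WT and 48.2% in Per2-/-, and the Igf2-led cluster 73.3% of those of Per1-/- day 10, against 24.8% and 19.8%. Within the Igf2-led cluster Itpr2 was at 23.3 CPM in Per1-/- day 10, against 11.2 in WT and 10.2 in Per2-/-.

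Ryr2 in fibroblast-like cells was at 0.189 to 0.721 CPM, with 0.351% to 1.57% of cells holding a UMI, which overlaps the macrophage-like background. Between days 7 and 4 none of the 8 members passed (1.36% of all genes), 1 had an unadjusted p under 0.05 and DESeq2 called 1 (Itpr3, adjusted p = 0.0455). Between days 10 and 4, 1 of 8 members passed by edgeR (17.8% of all genes) and 1 by limma-voom, while DESeq2 called 3, among them Ryr3 (adjusted p = 0.0459) and Itpr2 (adjusted p = 0.0415). By edgeR it was Itpr3, from 9.86 to 14.7 CPM on day 4 to 6.26 to 7.14 on day 10 (log2 −0.90 ± 0.20, adjusted p = 0.0239). The days did not overlap, and the call was lost without Per2-/- day 4 or any 1 of the day 10 libraries and with finer clusters (adjusted p up to 0.0962). A set of 3 clusters, led by Igf2, Pcolce2 and Hp, held 0% to 0.0184% of fibroblast-like cells in the day 4 libraries and 61.6%, 80.3% and 86.5% in WT, Per1-/- and Per2-/- by day 10, and the part of this make-up in the fall of Itpr3 was not tested. Without the Hp-led cluster the Itpr3 difference was −0.88 ± 0.20 (adjusted p = 0.0258). Atp2a2 was at 60.2 to 101 CPM, with its lowest value in Per2-/- day 10.

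In macrophage-like cells, which the ryanodine receptors reached at no more than 0.680 CPM, 6 members were tested and 0 passed between genotypes. The share of all genes past the threshold was 0.0236% for Per1-/- minus WT, 0% for Per2-/- minus WT and 0.0314% for Per1-/- minus Per2-/-, and 1, 2 and 4 members had an unadjusted p under 0.05. DESeq2 called 1 (Atp2a1, Per1-/- minus WT, adjusted p = 0.00317) and limma-voom 0. Without Per2-/- day 4, Atp2a3 and Itpr3 passed for Per2-/- minus WT (log2 −2.29 and −1.53, adjusted p = 0.0178 and 0.0259) and for Per1-/- minus Per2-/- (2.39 and 1.43, adjusted p = 0.0100 and 0.0209). With no filter on low counts Atp2a1 passed for Per1-/- minus WT (adjusted p = 0.0253), and Itpr3 for Per2-/- minus WT and Per1-/- minus Per2-/- (adjusted p = 0.0431 and 0.0326). The shares of all genes above are those of the main fit. Those by DESeq2 and under these alternatives are not given, so the added calls stand without a background. Atp2a1 was at 17.5 CPM in WT day 4, 5.64 in Per2-/- day 4 and 0.157 to 1.90 in the other 7 libraries. A cluster of 683 cells led by Ighm and Siglech, genes of B cells and plasmacytoid dendritic cells, gave 145 of the 154 Atp2a1 UMI of the class, with 101 and 40.6 CPM of Atp2a1 in those 2 libraries. In WT day 4, single cells gave 32 and 20 of the 64 Atp2a1 UMI of the class, and in Per2-/- day 4, 10 and 8 of 24.

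Between days 7 and 4, 0 of 6 members passed in macrophage-like cells (0.487% of all genes), 3 had an unadjusted p under 0.05, and DESeq2 and limma-voom each called 1 (Atp2a1). Between days 10 and 4, 4 of 6 passed, all lower on day 10, where 17.2% of all genes passed. Atp2a3, the pump of blood cells, went from 5.55 to 6.82 CPM on day 4 to 2.42, 2.12 and 0.105 in WT, Per1-/- and Per2-/- on day 10 (log2 −2.19 ± 0.64, adjusted p = 0.0470). Itpr3 went from 6.58 to 10.2 CPM to 0.628 to 3.45 (−1.91 ± 0.33, adjusted p = 0.00983), and Atp2a2 from 108 to 133 to 60.9 to 93.8 (−0.49 ± 0.12, adjusted p = 0.0256). Atp2a1 was at 17.5 and 5.64 CPM in WT and Per2-/- day 4 and at no more than 1.90 in Per1-/- day 4. On day 10 Atp2a1 was at 0.257 to 1.90 (−2.79 ± 0.65, adjusted p = 0.0230). Its days thus overlapped, and most of its UMI in the class lay in the Ighm-led cluster. The median over the 6 members was −1.20, against 0.0012 over all genes. Itpr1 went the other way and did not pass (0.96 ± 0.36, adjusted p = 0.0996). The Itpr1 difference was called with no filter on low counts (0.98, adjusted p = 0.0315) and without Per2-/- day 7 (0.99, adjusted p = 0.0355).

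A cluster led by Wfdc17 and Ccl8 held 0% of the macrophage-like cells on day 4 and 35.6%, 70.7% and 72.9% of them in WT, Per1-/- and Per2-/- by day 10, so the cell state, the day and the counting cannot be told apart. The call for Atp2a3 was lost in 12 of 19 alternatives (adjusted p up to 0.129), that for Atp2a2 in 7 (up to 0.0843), that for Atp2a1 in 4 of 18 (up to 0.109) and that for Itpr3 in 3 (up to 0.0639). Without the Ighm-led cluster Atp2a1 was too low to be tested, and this alternative is not among its 18. Its passing the filter on low counts thus rested on that cluster. Leaving out 1 library ended the call of Atp2a3 for 8 of the 9 libraries (the exception was Per2-/- day 4), of Atp2a2 for any library of day 4, WT day 10 and Per2-/- day 10, of Atp2a1 for WT day 4, WT day 10 and Per2-/- day 10, and of Itpr3 for Per1-/- day 4. Itpr2 held its level over the days, between 32.2 and 48.7 CPM, with log2 0.18 ± 0.12 on day 7 and 0.16 ± 0.12 on day 10 (adjusted p = 0.393 and 0.379). Its highest level was in the Ighm-led cluster, at 65.1 to 130 CPM.

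The partner genes comprised 79 genes of store-operated entry, luminal calcium binding, SERCA regulation, ryanodine receptor coupling, phospholipase C, IP3 metabolism, other ER channels, and calcium extrusion and mitochondrial uptake. In neuron-like cells 22 of 71 tested passed between days 7 and 4 (17.3% of all genes), 15 higher and 7 lower on day 7, with a median log2 difference of 0.11. Of the 13 tested ryanodine receptor partners 3 rose and 1 fell, of the 9 luminal calcium-binding proteins 4 rose and 0 fell, of the 15 genes of extrusion and mitochondrial uptake 4 rose and 1 fell, of the 11 genes of IP3 metabolism and IP3 receptor regulation 2 rose and 2 fell, and of the 9 phospholipases 1 rose and 2 fell. Of the 4 SERCA regulators 1 rose and 1 fell, and none of the 6 store-operated entry genes or the 4 other ER channels passed.

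Junctophilins tie the ER to the surface membrane next to ryanodine receptors. Jph3 rose from 3.06 to 3.94 CPM on day 4 to 8.25 to 10.6 on day 7 (log2 1.41 ± 0.15, adjusted p = 0.000161) and Jph4 from 9.21 to 14.8 to 33.9 to 59.4 (1.99 ± 0.21, adjusted p = 0.000192). Jph4 was at 107 CPM in the Snhg11-led cluster pooled over libraries and at 11.1 to 24.0 in the other 3, and that cluster made up 1.73% to 4.82% of the neuron-like cells of day 4 libraries and 27.3% to 46.9% of those of day 7. Atp2b2, a calcium pump of the surface membrane, rose from 27.9 to 36.4 CPM to 68.6 to 82.3 (1.14 ± 0.10, adjusted p = 6.74e-05). Calr, which encodes the luminal buffer calreticulin, rose from 185 to 195 CPM to 283 to 336 (0.68 ± 0.09, adjusted p = 0.00078). Inpp1, which acts in inositol phosphate turnover, rose by 0.65 ± 0.12 (adjusted p = 0.00419). None of these genes overlapped between day 4 and day 7, which adds no support because they were chosen for small p in this contrast. Pooled over libraries, the Lhx3-led cluster, whose share was lower on day 7, had 37.3 CPM of Atp2b2 against 35.9 to 97.1 in the other 3 clusters, 163 of Calr against 240 to 328, and 4.17 of Jph3 against 4.69 to 15.2. The part of the make-up in these rises was not tested.

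Pln encodes phospholamban, which restrains SERCA2. It went from 0.959 to 1.26 CPM on day 4 to 4.59 to 7.12 on day 7 (log2 2.37 ± 0.32, adjusted p = 0.000806). Pooled over libraries, Pln was at 9.84 CPM in the Vwc2l-led cluster and 0.669 to 2.27 in the other 3, and without the Vwc2l-led cluster the difference was −0.16 (adjusted p = 0.875). An unnamed cluster led by Gcg and Pln had 84.0 CPM of Pln.

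**Figure D5:**
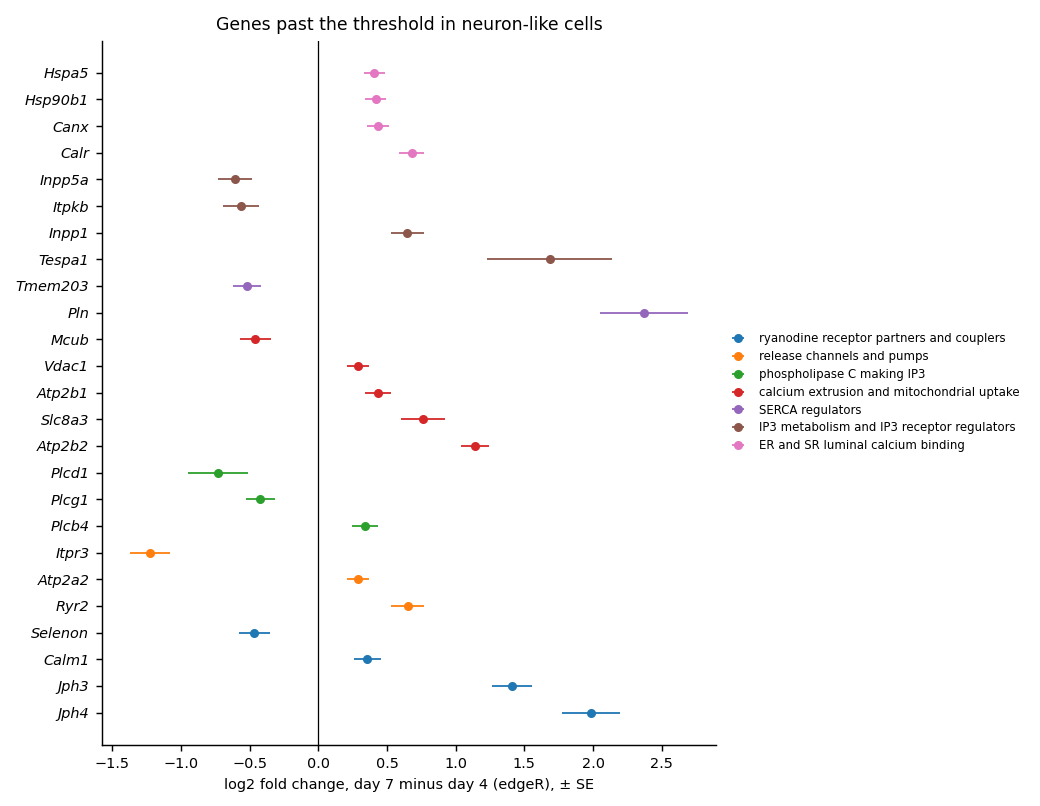
Members and partner genes past the threshold between days 7 and 4 in neuron-like cells. Points are edgeR log2 fold changes (above 0, higher on day 7), bars are standard errors and colours are roles; Itpr3 lies lowest at −1.23 and Pln highest at 2.37, and all luminal calcium-binding genes shown lie above 0.

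By day 10, 35 of 71 partners had passed in neuron-like cells, 22 higher and 13 lower (42.1% of all genes), led by Slc8a1 (log2 3.09 ± 0.12, adjusted p = 4.58e-08), Atp2b2 (1.54 ± 0.10), Jph3 (1.98 ± 0.15), Jph4 (2.78 ± 0.21), Calr (0.79 ± 0.09) and Inpp1 (0.95 ± 0.12). Slc8a1, a sodium-calcium exchanger of the surface membrane, was at 14.0 to 19.97 CPM on days 4 and 7 and at 109 to 144 on day 10 in neuron-like cells, at 8.86 to 14.6 and 50.1 to 74.6 in fibroblast-like cells, and at 12.5 to 25.2 and 91.9 to 97.5 in macrophage-like cells. This step fell between the sets of libraries counted with different annotations.

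No partner passed between genotypes in neuron-like, fibroblast-like or macrophage-like cells by edgeR or limma-voom, while DESeq2 called 1 in neuron-like cells (Per1-/- minus Per2-/-) and 1 and 2 in fibroblast-like cells (Per1-/- minus WT and Per1-/- minus Per2-/-). Of 71 tested in neuron-like cells 1, 4 and 5 had an unadjusted p under 0.05 for Per1-/- minus WT, Per2-/- minus WT and Per1-/- minus Per2-/-, of 76 in fibroblast-like cells 8, 3 and 11, and of 56 in macrophage-like cells 5, 10 and 7. In fibroblast-like cells 0 of 76 passed on day 7 (1.36% of all genes), with 12 at an unadjusted p under 0.05 and 4 called by DESeq2 and 0 by limma-voom, and 12 passed on day 10 (17.8% of all genes), led by Slc8a1 (2.50 ± 0.17), Vdac1 (−0.43 ± 0.07), Mcu, the pore of the mitochondrial calcium uniporter (−0.61 ± 0.11), Calm2 (−0.44 ± 0.08), Jph2 (−1.30 ± 0.27) and Jph3 (2.62 ± 0.61). In macrophage-like cells 0 of 56 passed on day 7 (0.487% of all genes), with 12 at an unadjusted p under 0.05 and 1 called by DESeq2 and 0 by limma-voom, and 10 passed on day 10 (17.2% of all genes), led by Slc8a1 (2.64 ± 0.18), Tmbim6 (0.55 ± 0.10), Atp2b4 (−1.93 ± 0.40), Orai3 (0.59 ± 0.13), Saraf (0.43 ± 0.09) and Inpp5b (−0.59 ± 0.13). Of 20 alternatives in fibroblast-like cells, the day 10 call of Jph3 was lost in 5, Jph2 in 3 and Calm2 in 2. Of 19 in macrophage-like cells, that of Saraf was lost in 5, Orai3 and Inpp5b in 4 each, Atp2b4 in 3 and Tmbim6 in 2. The Atp2b4 call was among others lost without the Ighm-led cluster, with adjusted p up to 0.406 over all alternatives.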

How the data were processed

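The 9 libraries were prepared by the authors with the Chromium Next GEM Single Cell 3′ v3.1 kit and counted on mm10. The deposited values are raw UMI counts per gene and cell barcode. Cell Ranger 7.1 is named in the submitters' processing notes, while the file headers give 4.0.0 for days 4 and 7 (31053 features) and 6.0.0 for day 10 (32285 features), and the 30406 genes common to all files (99.3% to 99.9% of UMI) were used.

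Barcodes under 3000 UMI or over 20% mitochondrial UMI were dropped, the limits stated by the study, which left 81999 of 95603, and 7164 barcodes scored as doublets against simulated doublets were removed. Cells were clustered without integration (2000 variable genes, 30 principal components, 15 neighbours, leidenalg 0.10.2 at resolution 1), with the members and partner genes kept out of the clustering. Of the 42 clusters, 26 were named from marker lists, so class names are rebuilt here. UMI counts were summed per class and library and, for 4 classes, tested with edgeR 4.0.16 (TMM scaling, filterByExpr, quasi-likelihood F-test, two-sided, Benjamini-Hochberg over all genes of the fit, threshold 0.05) with genotype and day as terms over all 9 libraries. Standard errors were derived from the fold and its F statistic. The p-values rest on the spread between cultures left after genotype and day were fitted, as no repeat of a genotype on a day was analysed here. The sources do not say whether the days of a genotype shared a MEF stock. A genotype p-value therefore need not measure the spread between stocks. On simulated counts for Per1-/- minus WT, 70% of genes changed by 1 log2 unit and 93% of those changed by 2 were recovered in neuron-like cells (14595 genes), and 58% and 86% in fibroblast-like cells (17103 genes). There were 10 and 13 false calls in these classes. Many genes were changed at once in the simulation, so these shares do not give the power of the real genotype contrasts, where few or no genes passed. Summed counts do not tell fewer expressing cells from less RNA per cell. Poisson and Clopper-Pearson intervals are two-sided at 95%. Separately, a fixed floor of 3 counts was set for a count of 0, which is not the upper limit of those intervals.

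Alternatives were DESeq2 1.42.0, limma-voom (limma 3.58.1), no filter on low counts, a model without the other factor, Y-linked CPM as a covariate, doublets kept, Leiden resolution 2, at least 5000 UMI per cell, shares of cells thinned to 3000 UMI, and each library left out. Every share of all genes past the threshold is that of the main edgeR fit, and those of the alternatives are not given. Named genes were the 9 members, in each tested contrast at most 6 partner genes past the threshold with the smallest p, and the 5 genes (Ryr2) or 3 genes (other members) most like a member among those with a mean of at least 5 CPM, of which 1 for Ryr2 is not reported here. Genes named outside this rule (Xist, Per1, Per2 and the genes that lead a cluster) were chosen after their values were seen. Coordinates and promoter windows come from RefSeq and the GRCm38 annotation. Of 81 partner genes written down, 79 were in the files. The members and lists were chosen with earlier results of these data known.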

Additional observations from a re-analysis of the deposited data

Results flagged for a closer look

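A total of 4 comparisons between cell classes stood out because all 3 genotypes moved one way from day 4 to day 7 in neuron-like cells and all 3 the opposite way in another class. Every pair of the 4 tested classes was looked at for each member with a median of at least 5 CPM. None of these differences was tested, and the share of all genes that meet this rule was not counted. The 3 comparisons of Itpr2 share the same neuron-like values. Values are mean changes of log2(CPM + 1) over the 3 genotypes. Itpr2, the IP3 receptor most abundant in macrophage-like cells, changed by −0.39 in neuron-like cells and by 0.44 in fibroblast-like cells, a difference of −0.84. Against macrophage-like cells, where Itpr2 changed by 0.15, the difference was −0.54. Against skeletal muscle-like cells, where Itpr2 changed by 0.33, the difference was −0.73. Atp2a2, the housekeeping SERCA pump, changed by 0.30 in neuron-like cells and by −0.35 in macrophage-like cells, a difference of 0.64. Of these single-class changes, that of Atp2a2 in neuron-like cells passed the edgeR test (adjusted p = 0.0301) and the others did not. The Atp2a2 call was lost in 10 of 19 alternatives. Day 4 and day 7 were counted against the same annotation.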

How the results depend on the processing

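The 4 member calls between genotypes outside neuron-like cells numbered 2 by limma-voom, 2 with Y-linked CPM as a covariate, 2 at Leiden resolution 2, 8 with no filter on low counts and 0 in a model without day. They numbered 2 without barcodes found in several libraries and 0 without 1 cluster of each class, alternatives chosen after seeing the data, as were the unthinned share of cells and fibroblast-like cells without the Hp-led cluster, under which the counts of member and partner calls were as reported. Leaving out 1 library gave 1 to 8. The 13 member calls between days numbered 6 without genotype in the model, 8 at Leiden resolution 2 and 8 to 12 with 1 library left out. The 6 partner calls between genotypes numbered 16 by DESeq2, 21 with no filter, 3 with the Y-linked covariate, 0 without day, 0 without 1 cluster of each class and 3 to 17 with 1 library left out. The 85 partner calls between days numbered 65 to 95 under the other settings and 58 to 73 with 1 library left out. The Ryr2 log2 difference of Per1-/- minus WT in neuron-like cells was 0.64 at Leiden resolution 2 and 0.66 to 0.92 with 1 library left out, against 0.81. The class with the highest level stayed the same for all 9 members with doublets kept, finer clusters, at least 5000 UMI and without shared barcodes, and for 8 by unthinned share of cells or without 1 cluster of each class (not Ryr1) and by thinned share (not Atp2a2). Of 1011 alternatives for 53 results on single genes, 830 kept direction and side of the threshold, 180 lost the threshold and 1 reversed: Pln in neuron-like cells on day 7, at −0.16 without the Vwc2l-led cluster. The cause was not tested in any of these. Thin sums limit Ryr1 and Atp2a1, which gave at most 72 UMI in a library of skeletal muscle-like cells. No paired analysis was possible because the labels give no replicate numbers to pair by. Blocking by day or genotype was part of the reported model, and the fits without it are given above.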

Other observations

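Other cells held members at levels worth listing, without explanation. In unnamed clusters, Itpr2 reached 59.5 CPM in the cluster of 917 cells led by Ptgds, Gjb2 and Vtn, which also had 34.0 CPM of Itpr1. Itpr3 was at 128 CPM in a cluster of 39 cells led by Mylk4, where 15 cells had a UMI, and Ryr3 was at 24.99 CPM there from 8 UMI. Atp2a3 was at 4.80 CPM in the cluster of 127 cells led by Retn, Adipoq and Fabp4, genes of fat cells, where 17 cells had a UMI. Atp2a2 was at 161 CPM in the cluster led by Gcg, Pln and Lin28b, which also held more Pln than any neuron-like or skeletal muscle-like cluster.

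In Schwann-like cells, which were not tested, Itpr3 was at 53.5, 70.2 and 66.2 CPM in WT, Per1-/- and Per2-/- on day 4, at 51.8, 56.2 and 38.4 on day 7 and at 54.2, 44.4 and 32.8 on day 10. In astrocyte-like cells Itpr2 was at 37.9 CPM in Per1-/- day 7 and at 7.75 to 13.4 in the other libraries with at least 50 cells. The lowest level of Atp2a2 over libraries was that of Per2-/- day 10 in fibroblast-like (60.2 CPM), macrophage-like (60.9), skeletal muscle-like (115), Schwann-like (92.7) and astrocyte-like cells (100.4), but not in neuron-like cells (154), where WT day 4 was lowest (129).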
